A study of Mus musculus with 4 samples.

Results

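The mitochondrial ribosome is assembled from RNAs encoded in mitochondrial DNA and from proteins that are all encoded in the nucleus, and it translates the membrane subunits of the respiratory chain. Most Mrpl proteins belong to its large subunit and most Mrps proteins to its small subunit, although the names are historical and Mrps18a and Mrps30 are proteins of the large subunit. The genes were chosen by name: protein-coding genes on autosomes whose mouse RefSeq symbol begins with Mrpl or Mrps followed by a digit. The rule found 78 genes, 49 Mrpl and 29 Mrps, among 20665 autosomal protein-coding genes, after 6 pseudogenes were left out. Heart tissue relies heavily on oxidative phosphorylation, and promoters of this gene family are typically CpG-rich and used in most cell types.

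Chromatin accessibility was measured by ATAC-seq, a method that tags open DNA with a transposase, in libraries from hearts of newborn mice. The 4 libraries fell into 2 groups, wild-type (WT rep 1 and rep 2, for replicates) and mice overexpressing the microRNA miR-187 (miR-187 rep 1 and rep 2). The mice were of C57BL/6J background, and the miR-187 transgene had been inserted at Rosa26 under the endothelial Tek (Tie2) promoter. For mouse ATAC-seq the study names +/+ and homozygous (KI/KI) genotypes, while the sample titles give no zygosity. The methods of the study describe endothelial cells captured with CD31 beads, whereas the labels name only the heart. The labels do not say whether a replicate was 1 animal or a pool, so the spread between replicates may be technical. Each library came with its own list of peaks, and the lists held 9307 and 12155 autosomal peaks in WT reps 1 and 2 and 7407 and 1461 in miR-187 reps 1 and 2. The background read density implied by the peak values was 1751 and 5227 reads per Mb in WT reps 1 and 2, and 2016 and 1032 in miR-187 reps 1 and 2. Of 12 endothelial marker genes, 2, 2, 2 and 1 had a peak in these lists in the same order. Only Cdh5, Kdr and Tek were called in any list, and the others, Pecam1 and Vwf included, in none. Of 12 cardiomyocyte marker genes, Myl2 and Tnni1 had one in WT rep 1 and none had one in the other lists. Among all autosomal protein-coding genes, 21.8%, 31.2%, 20.3% and 3.18% had a peak summit within 1 kb of either gene end. The few marker peaks thus do not settle which cells were sampled.

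A gene was counted as having a boundary peak when a peak summit lay within 1 kb of either end of its RefSeq gene model, and its strongest such peak was used. The upstream bases of 8 members are shown because these genes carried the peaks that recurred across lists or ranked highest, or because the letters of a regulator's site stood just upstream of the start. They are given 5′ to 3′ on the strand of the gene and end 1 base before the RefSeq start (GRCm38.p6), over 130 bases each. Capitals mark GCGCATGC, the core letters of the site of NRF1 (nuclear respiratory factor 1), and CCGGAAGT, those of the ETS family to which GABPA belongs, on either strand. Mrpl17 (chr7:105811088-105811217, minus strand), Mrps16 (chr14:20393635-20393764, minus strand) and Mrpl12 (chr11:120484507-120484636, plus strand) had a boundary peak in all 4 lists. Mrpl39 (chr16:84735245-84735374, minus strand) had the highest mean rank among members with a peak in at least 3 lists, and Mrpl32 (chr13:14613038-14613167, minus strand) carried the most copies of the NRF1 letters among these. Mrpl51 (chr6:125192070-125192199, plus strand) and Mrps26 (chr2:130563627-130563756, plus strand) carried the ETS letters, and Mrps21 (chr3:95871515-95871644, minus strand) had a peak in both miR-187 lists and only 1 WT list.
Mrpl17: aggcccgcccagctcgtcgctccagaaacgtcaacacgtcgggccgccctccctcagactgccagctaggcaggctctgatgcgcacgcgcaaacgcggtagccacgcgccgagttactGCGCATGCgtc
Mrps16: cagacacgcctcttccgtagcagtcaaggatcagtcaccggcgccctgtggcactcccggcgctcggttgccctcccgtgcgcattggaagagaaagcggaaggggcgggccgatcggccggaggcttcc
Mrpl12: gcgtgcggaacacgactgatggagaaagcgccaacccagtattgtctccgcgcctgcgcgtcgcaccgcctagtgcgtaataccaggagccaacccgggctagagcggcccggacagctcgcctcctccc
Mrpl39: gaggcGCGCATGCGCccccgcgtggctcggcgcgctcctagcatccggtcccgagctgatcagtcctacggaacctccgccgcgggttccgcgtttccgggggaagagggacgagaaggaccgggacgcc
Mrpl32: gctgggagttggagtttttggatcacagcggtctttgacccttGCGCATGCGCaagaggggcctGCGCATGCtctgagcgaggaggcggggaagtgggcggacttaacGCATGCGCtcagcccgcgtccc
Mrpl51: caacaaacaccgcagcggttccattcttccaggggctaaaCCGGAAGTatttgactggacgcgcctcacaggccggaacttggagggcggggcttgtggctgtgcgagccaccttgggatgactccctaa
Mrps26: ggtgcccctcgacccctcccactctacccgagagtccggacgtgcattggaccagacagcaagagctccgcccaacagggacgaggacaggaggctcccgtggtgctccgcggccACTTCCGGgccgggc
Mrps21: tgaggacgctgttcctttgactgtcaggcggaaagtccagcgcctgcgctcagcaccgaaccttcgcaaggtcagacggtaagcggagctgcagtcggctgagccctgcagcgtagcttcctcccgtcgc

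The first comparison asked how often mitochondrial ribosomal protein genes carried a boundary peak, and whether this differed with miR-187. In WT rep 1, 32 of the 78 genes had one (41.0%, 95% Wilson interval 30.8 to 52.1), beside 21.8% of all autosomal protein-coding genes. In WT rep 2 the number was 50 (64.1%, 53.0 to 73.9), beside 31.2% of all genes. In miR-187 rep 1 it was 35 (44.9%, 34.3 to 55.9) beside 20.3%, and in miR-187 rep 2 it was 6 (7.69%, 3.57 to 15.8) beside 3.18%. The intervals cover counting error only. The share of members was thus above that of all genes in each of the 4 lists, by 19.2, 32.9, 24.6 and 4.51 percentage points, or 1.88, 2.05, 2.21 and 2.42 times. With peaks of a −log10 q of at least 5 only, 14, 36, 12 and 0 members had one, and the difference was 11.7, 27.9, 7.88 and -0.26 points. In miR-187 rep 2 only 0.26% of all genes then had one. That is too few for the 0 among 78 members to show whether the difference held there.

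The groups overlapped. WT lists held 41.0 ± 12.7 members with a peak (mean ± SD, n = 2) and miR-187 lists 20.5 ± 20.5 (n = 2). The difference of -20.5 was no larger than the spread between the miR-187 libraries. With 2 libraries a group, the smallest p that the 2-sided exact permutation test can give is 0.333. miR-187 rep 1 had more member peaks than WT rep 1, and the low mean of the group rested on miR-187 rep 2. The difference was -6.0 without that library, -35.0 without miR-187 rep 1, and -11.5 without WT rep 2. The order of the 4 counts, 50, 35, 32 and 6, was the order of the background read densities, and the part of depth in the group difference was not tested. With every list cut to its 1483 strongest peaks, 13, 10, 9 and 6 members had a boundary peak in WT reps 1 and 2 and miR-187 reps 1 and 2 (16.7%, 12.8%, 11.5% and 7.69%), beside 4.88%, 5.82%, 4.99% and 3.18% of all genes.

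**Figure D1:**
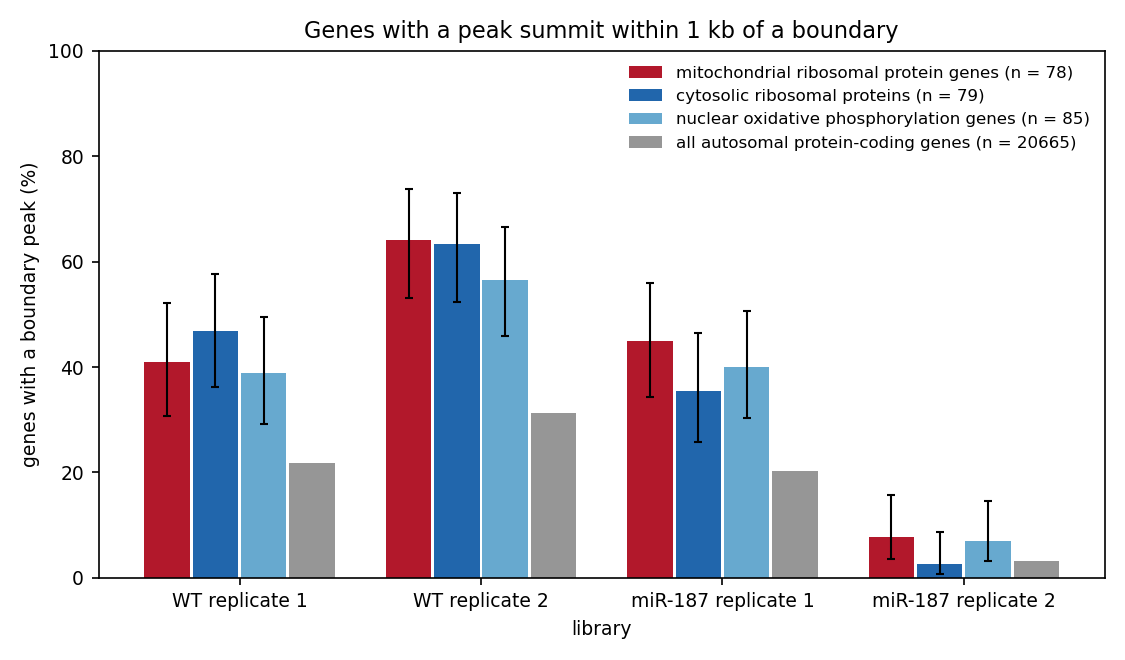
Share of genes with a peak summit within 1 kb of a boundary (y axis, %) in each of the 4 libraries (x axis), for mitochondrial ribosomal protein genes, cytosolic ribosomal protein genes, nuclear oxidative phosphorylation genes and all autosomal protein-coding genes. Error bars are 95% Wilson intervals. The red bars stand above the grey bars in every library, at 41.0%, 64.1%, 44.9% and 7.69% beside 21.8%, 31.2%, 20.3% and 3.18%.

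Genes of both names were represented in each list. Of the 49 Mrpl genes, 21, 29, 20 and 3 had a boundary peak in WT reps 1 and 2 and miR-187 reps 1 and 2 (42.9%, 59.2%, 40.8% and 6.12%). Of the 29 Mrps genes it was 11, 21, 15 and 3 (37.9%, 72.4%, 51.7% and 10.3%). The Wilson intervals of these name groups, which are not exactly the subunits, overlapped in each list, for example 45.2 to 71.8 for Mrpl and 54.3 to 85.3 for Mrps in WT rep 2.

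Over the lists, 4 genes had a boundary peak in all 4, 16 in 3 lists, 20 in 2, 19 in 1 and 19 in none. A peak in at least 1 list was thus found for 59 of 78 members (75.6%), beside 39.5% of all genes, and in both WT lists for 27 (34.6%), beside 16.5%. The other counts by number of lists, and the patterns below, have no share of all genes beside them. They describe the members only. The most frequent pattern after no peak was both WT lists with miR-187 rep 1, in 14 genes: Mrpl16, Mrpl20, Mrpl39, Mrpl40, Mrpl41, Mrpl50, Mrpl51, Mrps14, Mrps18b, Mrps18c, Mrps24, Mrps26, Mrps31 and Mrps33. Another 11 had one in WT rep 2 and miR-187 rep 1 (Mrpl1, Mrpl11, Mrpl34, Mrpl45, Mrpl47, Mrpl48, Mrpl58, Mrps17, Mrps22, Mrps5 and Mrps7), and Mrpl2 had one in WT rep 1 and miR-187 rep 1. The genes with a single peak were Mrpl10, Mrpl43, Mrpl46, Mrpl52, Mrpl55, Mrps11, Mrps12, Mrps18a, Mrps34, Mrps35 and Mrps9 in WT rep 2, Mrpl30, Mrpl33, Mrpl54 and Mrps6 in WT rep 1, and Mrpl21, Mrpl27, Mrpl53 and Mrps15 in miR-187 rep 1. No gene had its only peak in miR-187 rep 2.

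The threshold of 1 kb left a few genes near its edge. The summit just inside it was that of Mrpl45 in WT rep 2, at 963 bp from the gene boundary. Those just outside were Mrpl58 in WT rep 1, at 1009 bp, and Mrpl23 in WT rep 2, at 1022 bp.

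**Figure D2:**
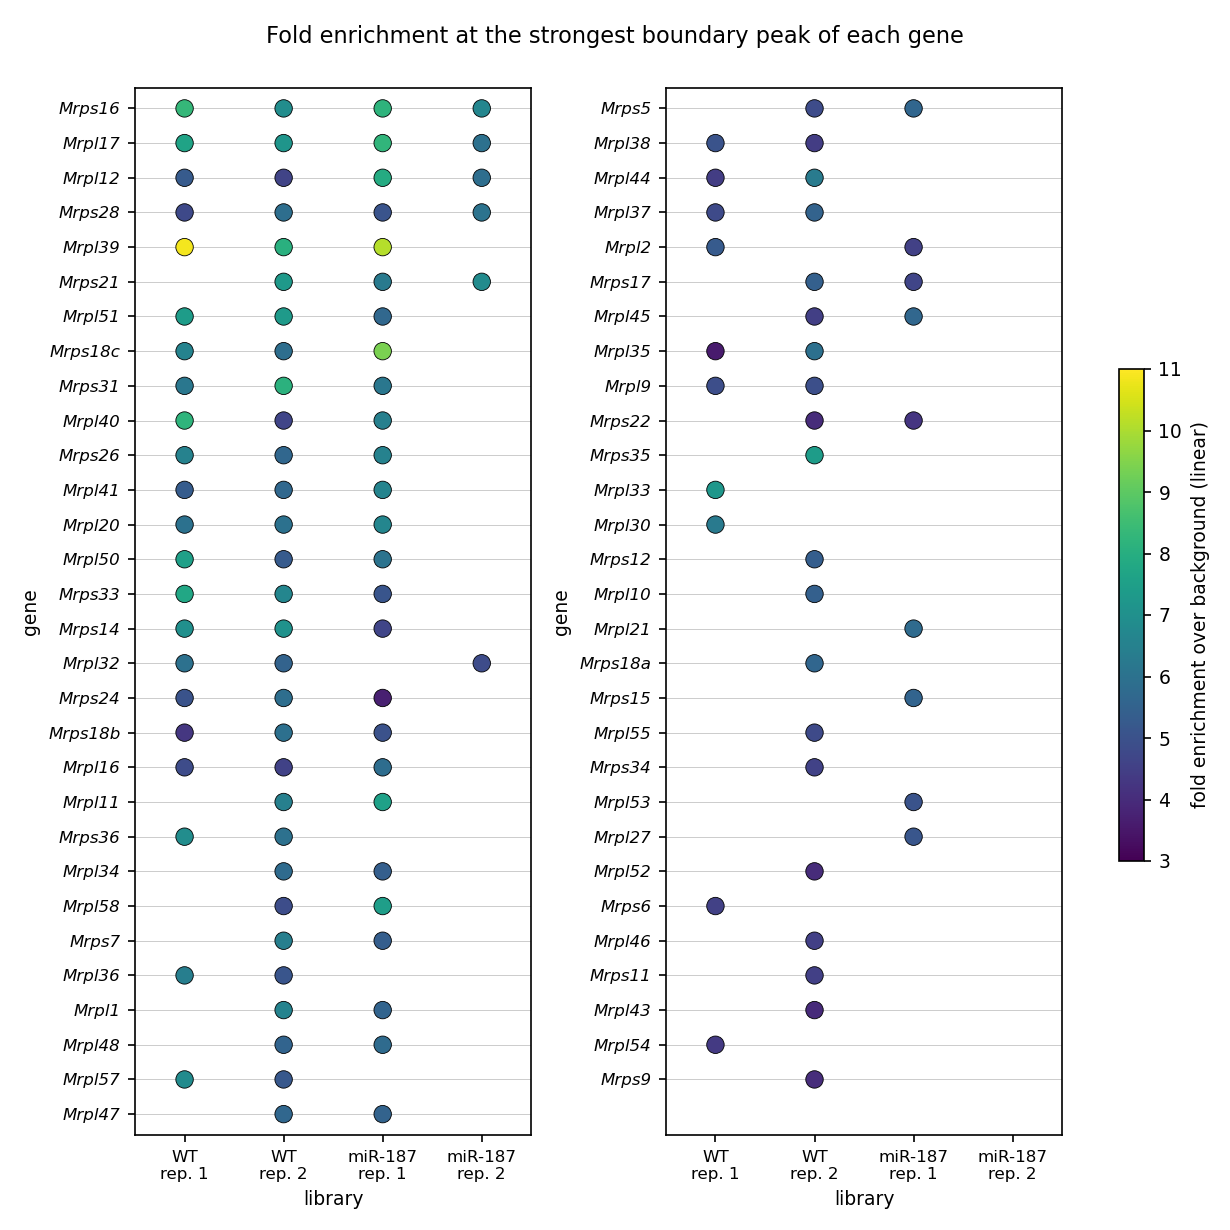
Fold enrichment at the summit (colour, linear scale, relative to the local background) of the strongest boundary peak of the 59 mitochondrial ribosomal protein genes with a peak (y axis) in the 4 libraries (x axis). A missing dot means that the list held no peak there. The 4 genes at the top left have a dot in every column, and only 6 dots stand in the column of miR-187 rep 2.

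Mrpl12, Mrpl17, Mrps16 and Mrps28 had a boundary peak in all 4 lists. Mrpl17, a large subunit protein with a bacterial counterpart, had a fold enrichment of 7.65 and 7.18 in WT reps 1 and 2 and 8.25 and 5.95 in miR-187 reps 1 and 2. Its summits lay 60, 55 and 56 bp upstream of the start in the first 3 lists and 123 bp downstream in miR-187 rep 2. On the log2 scale the miR-187 mean was lower by 0.08 (WT 2.89 ± 0.06, miR-187 2.81 ± 0.33, SD, n = 2 each, exact permutation p = 1). The difference was -0.32 without miR-187 rep 1 and turned to 0.15 without miR-187 rep 2. Mrpl17 peaks thus did not differ beyond the spread between libraries.

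Mrps16, the counterpart of bacterial S16 in the small subunit, had folds of 8.33 and 6.89 in WT and 8.16 and 6.67 in miR-187. The second replicate was the lower one in both groups, and the log2 difference was -0.04 (exact permutation p = 0.667, n = 2 each). Without WT rep 1 Mrps16 had a difference of 0.10, and without miR-187 rep 2 one of 0.11. Its peaks ranked at the 96.7th, 95.9th, 95.7th and 87.3rd percentile of −log10 q among the autosomal peaks of their lists, so it was the member nearest the top of the list of miR-187 rep 2 after Mrps21.

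Mrps28, related to bacterial S1, had folds of 4.76 and 5.84 in WT and 5.09 and 6.06 in miR-187, with a log2 difference of 0.07 (exact permutation p = 0.667, n = 2 each). Here the second replicate was the higher one in both groups. The Mrps28 difference turned to -0.07 without WT rep 1 and to -0.05 without miR-187 rep 2. Mrpl12, the stalk protein of the large subunit to which translation factors bind, had folds of 5.26 and 4.61 in WT and 7.89 and 5.84 in miR-187. Both miR-187 values were above both WT values, with a log2 difference of 0.46 and an exact permutation p of 0.333 (n = 2 each), the smallest possible. The difference was 0.25 without miR-187 rep 1 and 0.68 without miR-187 rep 2. These Mrpl12 peaks were not at 1 place: the summit was upstream of the start, at -368 and -39 bp, in WT rep 1 and miR-187 rep 1, and 4799 and 4826 bp downstream, beyond the 3′ end, in WT rep 2 and miR-187 rep 2. Each group therefore held 1 peak of each kind.

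Mrpl39, a large subunit protein specific to mitochondria, had the highest mean rank among members with a peak in at least 3 lists. Its fold enrichment was 10.9 in WT rep 1, 8.09 in WT rep 2 and 10.1 in miR-187 rep 1, and miR-187 rep 2 had no peak. The corresponding ranks were the 99.7th, 95.8th and 99.4th percentile, and in WT rep 2 Mrps31, Mrpl17 and Mrps16 ranked above it. The summits lay 52, 129 and 140 bp upstream of the start. In the upstream sequence printed above, the letters of the NRF1 site stood on both strands, overlapping, at 125 and 123 bases before the start, which is close to the summits in WT rep 2 and miR-187 rep 1.

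Mrps21, the counterpart of bacterial S21, was the only member with a peak in both miR-187 lists and fewer than both WT lists. It had folds of 7.31 in WT rep 2, 6.25 in miR-187 rep 1 and 6.82 in miR-187 rep 2, with no peak in WT rep 1. No member was called in both miR-187 lists but in neither WT list. Over all genes 14 of 20665 were (0.068%), too few for the 0 among 78 members to show a difference. The pattern of Mrps21 was not counted over all genes. Mrpl32, a large subunit protein whose precursor is processed by an inner membrane protease, had a peak in each WT list and in miR-187 rep 2 but not in miR-187 rep 1, with folds of 5.95, 5.52 and 4.84.

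Mrps18c and Mrpl51 completed the 6 highest-ranked members with a peak in at least 3 lists. Mrps18c is one of 3 genes related to bacterial S18, with Mrps18a and Mrps18b, and had folds of 6.59 and 5.87 in WT reps 1 and 2 and 9.38 in miR-187 rep 1. Mrpl51 had 7.39 and 7.33 in WT and 5.67 in miR-187 rep 1. In miR-187 rep 1 the fold of Mrps18c was above and that of Mrpl51 below both of its WT values. Neither gene had a peak in miR-187 rep 2, and these differences between lists were not tested. The Mrpl51 summits were 330 bp downstream of the start in WT rep 1, and 410 and 437 bp upstream in WT rep 2 and miR-187 rep 1. Its peaks in WT rep 1 and miR-187 rep 1 did not overlap.

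Of the 27 members peaked in both WT lists, 8 lacked a boundary peak with miR-187 altogether (29.6%, 95% Wilson interval 15.9 to 48.5). The same was true of 36.3% of all genes called in both WT lists, so members did not stand above that share. The 8 genes were Mrpl35, Mrpl36, Mrpl37, Mrpl38, Mrpl44, Mrpl57, Mrpl9 and Mrps36. Of these, Mrpl36, Mrpl37, Mrpl38, Mrpl44 and Mrpl57 had a boundary of another gene within 1 kb of their own. Leaving out a library eased the condition, and the count was 9 of 27 without miR-187 rep 2 (33.3%, all genes 39.1%) and 12 of 32 without WT rep 2 (37.5%, all genes 44.0%). It was 19 of 50 without WT rep 1 (38%, all genes 46.0%) and 22 of 27 without miR-187 rep 1 (81.5%, all genes 89.0%). In each case the share of members was below that of all genes.

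The rank of these WT peaks varied widely. Mrps36, since described as a subunit of the 2-oxoglutarate dehydrogenase complex rather than of the ribosome, had folds of 6.88 and 5.94 and ranked at the 87.0th and 75th percentile in WT reps 1 and 2. Mrpl36, the counterpart of bacterial L36, had folds of 6.40 and 5.12 and ranks of 80.4 and 61.8, with summits 4 and 35 bp from its boundary. These summits were far from its annotated start, at -2502 and -2541 bp, and also within 1 kb of Ndufs6. In WT rep 2 a separate peak stood at the annotated start, at -3 bp, with a fold of 5.45. The boundary peaks of Mrpl36 thus do not describe the promoter at that start. Mrpl57 had folds of 6.82 and 5.16 and ranks of 87.9 and 46.0. Its peaks in the WT lists did not overlap. Their summits lay 357 bp downstream of the start in WT rep 1 and 86 bp upstream in WT rep 2.
For the other 5 genes at least 1 of the WT peaks ranked below the 40th percentile. Mrpl38 had folds of 5.06 and 4.41, and its summits were at opposite ends of the gene in the WT lists, with that of WT rep 2 within 1 kb of Trim65. Mrpl37 had 4.79 and 5.51, Mrpl9 had 4.88 and 4.92, and Mrpl44, a protein with an RNase III-like fold, had 4.41 and 6.30. Mrpl35 had 3.57 and 5.93, and its peak in WT rep 1 stood at a pileup of 4 reads, the lowest in that list. A list without a peak shows only that no peak passed the caller's threshold there, not that the promoter was closed.

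The strength of the peaks was then compared with that of all genes with a boundary peak in the same list. The median fold enrichment of members was 6.08, 5.58, 5.67 and 6.01 in WT reps 1 and 2 and miR-187 reps 1 and 2, beside 5.49, 5.26, 5.68 and 5.47 over all genes. It was higher by 0.59, 0.32 and 0.54 in 3 lists and differed by -0.01 in miR-187 rep 1. The median width of member peaks was 349.5, 393.5, 301 and 268 bp, beside 309, 391, 321 and 229 bp. Members were thus wider at the median in 3 lists and narrower in miR-187 rep 1, but this direction did not hold under other settings. With a −log10 q of at least 5 the difference was -6.5, -12.5 and -68.0 bp in the 3 lists that kept member peaks, and with equal numbers of peaks it was -7.5, -67.5, -79.0 and 39.0 bp in the 4 lists.
The median percentile rank of member peaks was 74.3, 65.6, 55.5 and 71.8, beside 59.7, 61.9, 56.7 and 54.5 for all genes. Members therefore ranked above all genes at the median by 14.6, 3.69 and 17.3 percentile points in WT reps 1 and 2 and miR-187 rep 2, and by -1.17 in miR-187 rep 1. The direction in WT rep 2 turned with a −log10 q of at least 5 (rank difference -4.69, fold difference -0.12), and its rank difference was -3.30 with a 250 bp window and -0.66 with equal numbers of peaks. In miR-187 rep 1 it turned the other way, with a rank difference of 13.0 and a fold difference of 0.50 without shared loci, 4.06 and 0.63 at the stricter q, and 3.09 and 0.54 with equal numbers of peaks. Its rank difference was 0.11 with annotated starts only. The mean rank difference over the lists was 8.61, with 0.34 at the stricter q and 17.7 without shared loci. The quartiles of members were wide, from 31.7 to 89.4 in WT rep 1 and from 35.3 to 80.6 in miR-187 rep 1. The peaks rested on few reads: the median inferred pileup at a member summit was 10, 15.5, 10 and 8 reads. Since only genes with a called peak entered, these medians describe the called members and not the family.

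**Figure D3:**
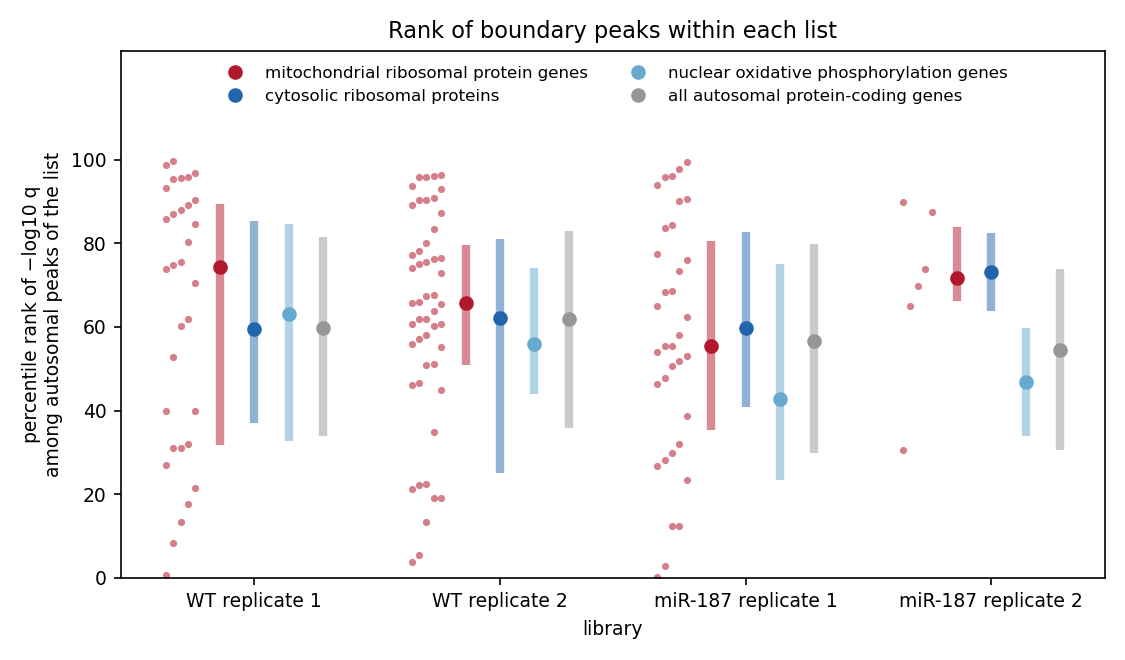
Percentile rank of −log10 q among the autosomal peaks of the same list (y axis) for boundary peaks in each library (x axis). Small dots are single mitochondrial ribosomal protein genes, large dots are medians and bars run from the lower to the upper quartile for each gene group. Member medians were 74.3, 65.6, 55.5 and 71.8, beside 59.7, 61.9, 56.7 and 54.5 for all genes, and single members spread over most of the scale.

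The position of the summits relative to the start of the gene was compared next. A RefSeq start was at hand for 69 of the 78 members and 16457 of all genes. The median distance from summit to nearest start was 145, 95.5, 105.5 and 123 bp for members in WT reps 1 and 2 and miR-187 reps 1 and 2, beside 159, 135, 139 and 176 bp for all genes. The share of members with the summit within 250 bp of a start was 62.1%, 78.3%, 73.5% and 60.0%, beside 63.1%, 66.7%, 68.0% and 59.3% of all genes, so it was higher than the genome-wide share in WT rep 2 and miR-187 rep 1 and close to it in the other lists. Within 1 kb of a start it was 89.7%, 91.3%, 91.2% and 80.0%, beside 90.8%, 91.6%, 92.0% and 90.02%, which is the share of all genes or below it. Where both WT lists had a boundary peak at a member, the peaks overlapped in 85.2% of 27 genes with a median of 113 bp between summits, beside 86.4% and 115 bp over all genes. Between WT rep 2 and miR-187 rep 1 it was 96.7% of 30 members and 58 bp, beside 89.7% and 98.5 bp, and between WT rep 1 and miR-187 rep 1 84.2% of 19 and 88 bp, beside 84.4% and 119 bp. The pairs with miR-187 rep 2 rested on 5 or 6 members, and there the summits lay farther apart in members than in all genes, at 147 beside 136 bp with WT rep 1, 125 beside 115 bp with WT rep 2 and 179 beside 128 bp with miR-187 rep 1. The members' peaks overlapped in 80.0%, 100% and 80.0% of these, beside 76.9%, 83.8% and 81.4%.
A few boundary peaks of members were not at a known start of that member. They were those of Mrpl36, Mrpl2 and Mrps18b in WT rep 1, of Mrpl12, Mrpl36, Mrpl58 and Mrps18b in WT rep 2, of Mrpl21, Mrpl58 and Mrps18b in miR-187 rep 1, and of Mrpl12 in miR-187 rep 2. The Mrps18b peak recurred in 3 lists, 6318, 6376 and 6297 bp downstream of its start and within 1 kb of Atat1, a tubulin acetyltransferase gene. The peak of Mrpl58, a ribosome rescue factor with peptidyl-tRNA hydrolase activity, was 9646 and 9632 bp downstream of the start in WT rep 2 and miR-187 rep 1.

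**Figure D4:**
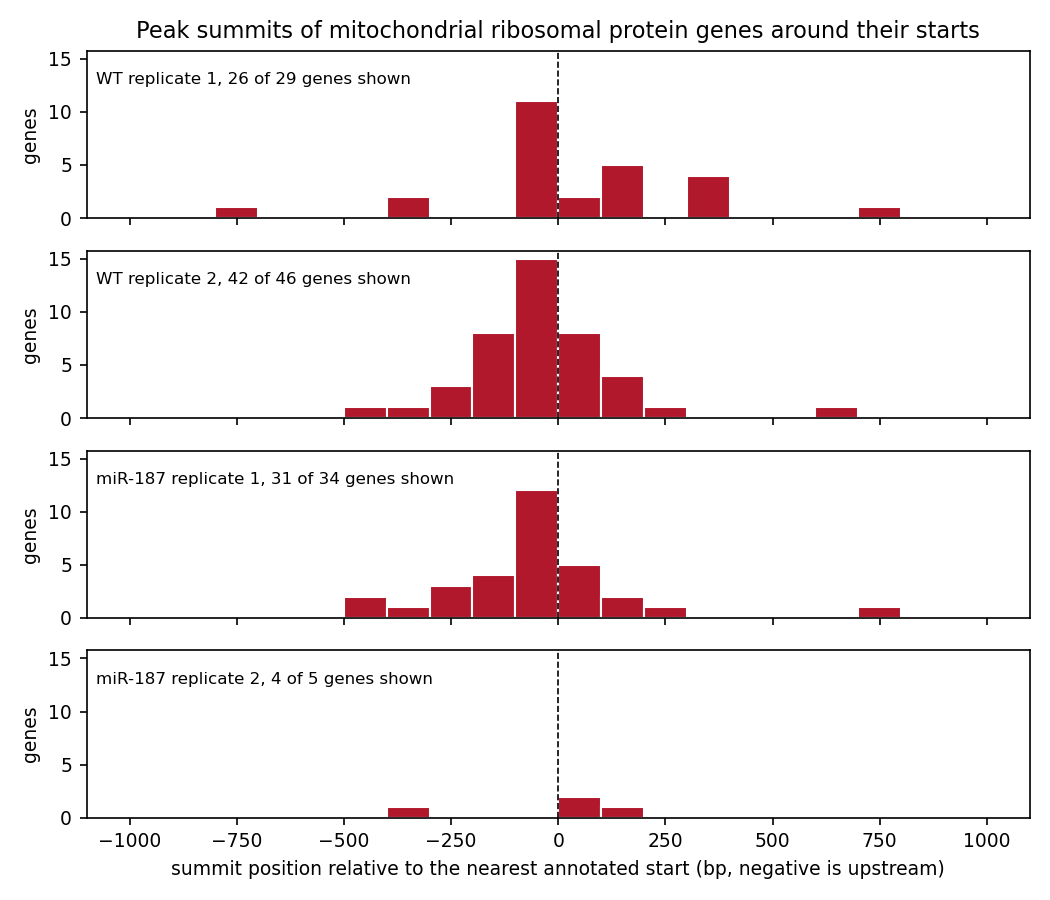
Number of mitochondrial ribosomal protein genes (y axis) by the position of the boundary peak summit relative to the nearest annotated start (x axis, bp, negative is upstream, bins of 100 bp), 1 panel per library. Summits beyond 1 kb from a start are not drawn. In WT rep 2, 42 of 46 genes are drawn, and the tallest bin lies just upstream of the start.

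The boundary rule also missed members whose start lies inside the gene model. Of the 19 members without a boundary peak, a start was known for 15, and 6 of these (40%) had a peak within 1 kb of an annotated start farther in, beside 7.24% of the 9820 genes of this kind overall. They were Mrpl18, Mrpl22, Mrpl23, Mrpl24, Mrps2 and Mrps23. Mrps23, a small subunit protein, had such a peak in all 4 lists, with folds of 6.04 and 5.41 in WT reps 1 and 2 and 7.33 and 4.61 in miR-187 reps 1 and 2. Mrpl18, counterpart of a 5S rRNA-binding protein, had one in both WT lists and miR-187 rep 1, with folds of 6.04, 7.67 and 7.73 and summits 20, 130 and 59 bp upstream of the start. With these, 65 of the 78 genes (83.3%) had a peak at a boundary or a start in at least 1 list, beside 42.9% of all genes. The 9 with a known start and neither were Mrpl14, Mrpl28, Mrpl3, Mrpl42, Mrpl49, Mrps10, Mrps25, Mrps27 and Mrps30. For Mrpl13, Mrpl15, Mrpl19 and Mrpl4 the table gave no start, so an inner start could not be examined, and Mrpl4 had a peak inside the gene in WT rep 1 with a fold of 4.94. The rule for inner starts was added, and the 6 genes picked out, after their values were seen.

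Many members lie close to a neighbour at their start or their 3′ end, and a peak within 1 kb of both genes cannot be assigned to 1 of them. For 44 of the 78 members (56.4%) a boundary of another protein-coding gene lay within 1 kb of their own, beside 25.6% of all genes, 55.3% of nuclear oxidative phosphorylation genes and 36.7% of cytosolic ribosomal protein genes. This count takes in either end of the gene and is not one of shared promoters. Of the 69 with a known start, 25 (36.2%) had a start on the opposite strand head to head within 1 kb, beside 9.64% of all genes, 27.5% of oxidative phosphorylation genes and 15.5% of cytosolic ribosomal protein genes. The genes were also short, with a median length of 7690.5 bp beside 17491 bp.
Some partners also act in mitochondria. Mrpl46 and Mrps11 stand head to head with each other, with 42 bp between them, and shared 1 peak in WT rep 2 with a fold of 4.51. Mrpl47 stands head to head with Ndufb5, and Mrpl36 lies next to Ndufs6, both complex I genes. Mrps12 is paired with Sars2, the mitochondrial seryl-tRNA synthetase, 136 bp away, and both took their fold of 5.35 in WT rep 2 from the same peak. Mrpl43 is paired with Twnk, the helicase of mitochondrial DNA replication, 649 bp away.

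Among the 8 members with a shared locus and the highest mean rank, Mrps16 (beside Cfap70), Mrpl51 (beside the condensin gene Ncapd2) and Mrps18c (beside the helicase gene Helq) were described above. Mrpl34, the counterpart of bacterial L34, had folds of 5.75 in WT rep 2 and 5.40 in miR-187 rep 1 at a peak within 1 kb of Abhd8. Mrpl40, 113 bp from the histone chaperone gene Hira, had 8.19 and 4.64 in WT and 6.47 in miR-187 rep 1. Mrpl41 had 5.31 and 5.67 in WT and 6.60 in miR-187 rep 1, at summits within 1 kb of Pnpla7. Its peak in WT rep 1, with the summit 783 bp upstream of the start, overlapped neither of the others. The summits of those were 35 and 111 bp upstream in WT rep 2 and miR-187 rep 1.
Mrps7, a protein of the small subunit head, had folds of 6.42 in WT rep 2 and 5.37 in miR-187 rep 1 beside Gga3, and Mrpl30 had its only peak, with a fold of 6.25, in WT rep 1 beside Mitd1. None of these 5 genes had a peak in miR-187 rep 2.

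The excess of peaks was not limited to shared loci. Members with no neighbour within 1 kb had a boundary peak in 38.2%, 67.6%, 44.1% and 8.82% of 34 genes in WT reps 1 and 2 and miR-187 reps 1 and 2. The corresponding shares of all genes with no neighbour were 17.2%, 25.1%, 16.1% and 2.47%. At shared loci, members had one in 43.2%, 61.4%, 45.5% and 6.82% of 44 genes, beside 35.2%, 49.0%, 32.5% and 5.25% of all such genes. Over all genes the share was thus higher at shared loci in each list, whereas among members it was higher there in 2 lists and lower in 2.

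The promoter windows of members, from 250 bases before to 50 after the RefSeq start, were CpG-rich. A CpG ratio (observed over expected) of at least 0.6 was found in 64 of 69 member windows (92.8%), beside 49.8% of all windows, and the median ratio was 0.82 beside 0.60. The median GC content was 58.3% beside 56.7%. Within CpG-rich windows only, a comparison added after the data were seen, members had a boundary peak in 42.2%, 64.1%, 50.0% and 7.81%, beside 36.2%, 51.6%, 34.4% and 5.25% of all genes with such a window. The gap between members and all genes was therefore smaller there, at 5.97, 12.4, 15.6 and 2.57 percentage points. The Wilson interval of members included the share of all genes in WT rep 1 (30.9 to 54.4) and miR-187 rep 2 (3.38 to 17.0). It stood just above that share in WT rep 2 (51.8 to 74.7) and above it in miR-187 rep 1 (38.1 to 61.9). An excess within CpG-rich windows was thus not resolved in WT rep 1 and miR-187 rep 2.

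Letters of sites bound by regulators of nuclear mitochondrial genes were counted in the same windows on both strands. The NRF1 letters GCGCATGC stood in 8 of 69 member windows (11.6%), beside 3.66% of all windows. The 8 were those of Mrpl10, Mrpl17, Mrpl22, Mrpl32, Mrpl33, Mrpl39, Mrpl9 and Mrps18b. The ETS letters CCGGAAGT stood in 11 (15.9%), beside 5.44%, and those of the zinc finger factor YY1, AAGATGGC, in 12 (17.4%), beside 3.21%. All 3 were thus more frequent than over all windows, of which 49.8% were CpG-rich beside 92.8% of member windows. The letters were not compared within CpG-rich windows alone.
The 11 with the ETS letters were Mrpl18, Mrpl27, Mrpl3, Mrpl33, Mrpl43, Mrpl51, Mrpl52, Mrps18c, Mrps22, Mrps26 and Mrps27. The 12 with the YY1 letters were Mrpl32, Mrpl35, Mrpl36, Mrpl37, Mrpl42, Mrpl49, Mrps11, Mrps12, Mrps18a, Mrps24, Mrps27 and Mrps7. The GC box GGGCGG was found in 49.3% beside 47.3%, the NF-Y letters CCAAT in 39.1% beside 39.1%, and TATAAA in 5.80% beside 13.5%. A match describes the letters and not binding.
Among windows of genes called in both WT libraries, the NRF1 letters stood in 5 of 25 member windows (20.0%) beside 6.74% of all 2806, and the YY1 letters in 20.0% beside 5.49%. The ETS letters stood in 12% beside 9.76%. In Mrpl17, whose upstream bases are printed above, the NRF1 letters began 11 bases before the start, and 3 summits lay 55 to 60 bp upstream of it. Mrpl32 carried them at 87, 85, 66 and 22 bases before the start, while its summits were 340, 348 and 329 bp upstream, beside Psma2, a proteasome gene head to head with it.

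**Figure D5:**
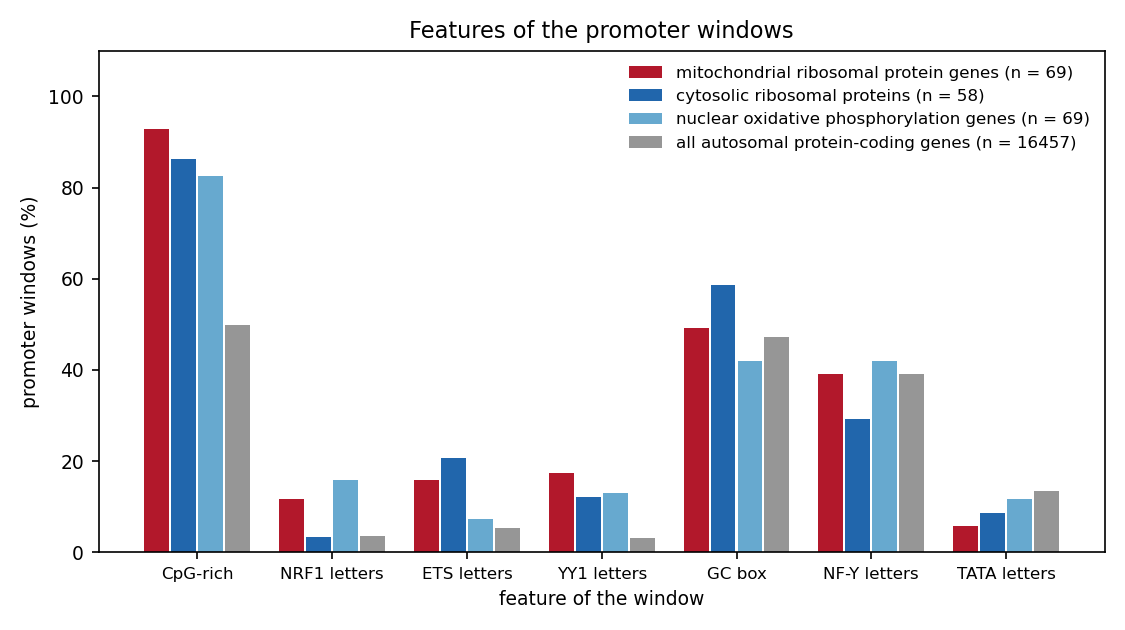
Share of promoter windows (y axis, %) that were CpG-rich or held the letters searched for each regulator (x axis), for mitochondrial ribosomal protein genes, cytosolic ribosomal protein genes, nuclear oxidative phosphorylation genes and all autosomal protein-coding genes with a window. CpG-rich windows made up 92.8% of member windows and 49.8% of all windows, and the YY1 letters stood in 17.4% and 3.21%.

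Genes of the cytosolic ribosome, which is a separate ribosome, and of mitochondrial pathways were counted in the same way for comparison. Of 79 genes for proteins of the cytosolic ribosome, 37, 50, 28 and 2 had a boundary peak in WT reps 1 and 2 and miR-187 reps 1 and 2 (46.8%, 63.3%, 35.4% and 2.53%). Of 85 nuclear oxidative phosphorylation genes it was 33, 48, 34 and 6 (38.8%, 56.5%, 40.0% and 7.06%). The Wilson intervals of these lists overlapped those of the members in every library. The cytosolic group had 37 against 32 genes in WT rep 1 and 28 against 35 in miR-187 rep 1, a crossing that was not tested. NRF1 letters stood in 3.45% of the windows of cytosolic ribosomal protein genes and in 15.9% of those of oxidative phosphorylation genes, beside 11.6% of members. The ETS letters stood in 20.7% and 7.25% of these windows, beside 15.9% of members, and the YY1 letters in 12.1% and 13.0%, beside 17.4%. The 3 sets of letters were thus not highest in members throughout: NRF1 letters were more frequent in oxidative phosphorylation genes and ETS letters in cytosolic ribosomal protein genes.

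The smaller lists of the pathway had few genes each. Of 17 ribosome assembly genes, 10, 12, 8 and 0 had a boundary peak in the 4 lists in the same order, among them the GTPase genes Mtg1, with folds of 7.45, 5.67 and 6.41, and Mtg2, with 5.26, 5.04 and 5.11, in both WT lists and miR-187 rep 1. Of 12 translation factor genes it was 4, 8, 6 and 1, and the elongation factor gene Tufm had 5.56 in WT rep 2 and 5.43 in miR-187 rep 1. Of 17 mitochondrial aminoacyl-tRNA synthetase genes it was 9, 11, 5 and 1.
The one synthetase gene in all 4 lists was Lars2, at folds of 14.5, 17.5, 16.2 and 11.4. These were the highest folds of any boundary peak in each list, far above the other pathway genes named here, and what sets this peak apart was not tested. Of 4 mitochondrial DNA transcription genes it was 1, 4, 4 and 1, with Tfb2m in all 4 lists at 6.32, 8.22, 6.57 and 3.91. Of 8 nuclear regulators it was 3, 5, 3 and 1, and Nrf1, whose protein binds the letters counted above, had folds of 5.10 in WT rep 1 and 5.0 in miR-187 rep 1. Of 5 ribosome proteins outside the naming rule it was 2, 2, 1 and 0.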

How the data were processed

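ATAC-seq libraries from newborn mouse hearts, 2 WT and 2 miR-187, were grouped by the sample titles. According to the submitters' processing notes the tools named were FastQC, Bowtie2 2.2.6, SAMtools 1.10, deepTools 3.3.2, MACS2 2.2.7.1, HOMER 4.11, ChIPseeker and DiffBind, with build mm10 (GRCm38). How duplicates and mitochondrial reads were treated, and whether cut sites were shifted, is not given in the sources used here. Each deposited list was called per library, in the 10-column narrowPeak layout. The authors' peak caller gave for each peak a start, an end and a summit position, a fold enrichment (a ratio to background), a −log10 p, a −log10 q and a whole-number score. The largest deposited q in a list was between 0.0463 and 0.0498. Folds were compared within a list or, for single genes with a peak in all 4 lists, between libraries on the log2 scale. The latter used an exact permutation test (2-sided, 6 ways to assign the libraries). Folds of other genes are given side by side without a test. Each fold is relative to the background of its own list.

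Genes came from RefSeq GRCm38.p6. Starts and promoter windows came from a table that covers 69 of the 78 members. Read totals were not used, so depth was inferred: taking the fold as (pileup + 1)/(background + 1) and the p-value as a Poisson tail, a whole-number pileup can be solved within 0.0005 in −log10 p, which was possible for 100% of peaks in each list, and the solver was tested on simulated data. The lowest background divided by 200 bp was taken as the read density. Genes are not replicates, so counts over members carry no p-value.

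The members and the lists compared with them were chosen with earlier results of these data known. Named with full values were members with a boundary peak in all 4 lists, those in both WT lists and neither miR-187 list, those in both miR-187 lists and at most 1 WT list, the 6 of highest mean rank among those in at least 3 lists, and the 8 of highest mean rank at shared loci. The genes with starts inside the gene model, Mrpl32, genes with peaks far from a start and the pathway genes named were chosen after their values were seen. Alternatives tried were a −log10 q of at least 5, an equal number of peaks per list, windows of 250 bp and 3 kb, all of chromosomes 1 to 19, X and Y, leaving out shared loci, the peak nearest to a boundary, annotated starts only, overlap of peaks, leaving out each library, and a replicate block. The software was Python 3.11.15 with matplotlib 3.10.9, scipy 1.17.1, pandas 2.3.3 and numpy 2.4.6.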

Additional observations from a re-analysis of the deposited data

How the results depend on the processing

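Of 90 values recomputed under other settings, 80 stayed within the spread between replicates or 1.5 times the count, and 10 moved. With a −log10 q of at least 5 the median width of members minus that of all genes became -29.0 bp, the share difference fell from a mean of 20.3 to 11.8 percentage points and the rank difference from 8.61 to 0.34. With an equal number of peaks per list the share of members exceeded that of all genes by 7.46 percentage points, the width difference was -28.8 bp and 2 of the 5 members called in each WT list (40%) lacked a miR-187 peak, beside 46.0% of all genes. With a 250 bp window the width difference was 50.6 bp and that count was 4 of 14 (28.6%, all genes 42.5%). Without shared loci the fold difference was 0.69 and the count 3 of 12 (25%, all genes 37.4%). With the stricter q the count was 6 of 11 (54.5%, all genes 56.2%). Leaving out each library in turn, the count ranged from 9 to 22, since losing a library eases a condition, and the difference in members with a peak ranged from -35.0 to -6.0. A replicate block left the latter at -20.5, as it must for a mean of differences, and its sign-flip test cannot give a p below 0.5. Inferred depth was unequal between the lists within both groups, and the shallowest list held 6 member peaks.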

Other observations

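Some members also had peaks well inside the gene. A summit more than 1 kb from both boundaries was found in 5, 8, 6 and 2 of the 78 members in WT reps 1 and 2 and miR-187 reps 1 and 2 (6.41%, 10.3%, 7.69% and 2.56%), beside 11.6%, 12.7%, 8.66% and 2.14% of all genes, which are longer. Mrpl48, a long gene of this family, had 1 such peak at nearly the same place in 3 lists, with folds of 7.56 in WT rep 1, 6.92 in WT rep 2 and 8.13 in miR-187 rep 1, and summits 411, 500 and 191 bp downstream of an annotated start. Mrpl45 had an internal peak in WT rep 2 and in miR-187 rep 2, with folds of 4.47 and 4.69, at 12565 and 12645 bp downstream of its nearest start. That pair of summits was far from any start known for the gene, and 1 of the lists was the shortest of the 4.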
